A study of Mus musculus with 6 samples.

Results

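Conjugation enzymes attach a water-soluble group to drugs, dietary compounds, hormones, bilirubin and products of lipid oxidation. The genes described here are the 48 of 27546 listed mouse genes whose symbols place them among the UDP-glucuronosyltransferases (UGT), the glutathione S-transferases (GST, with the membrane-bound MGST) and the cytosolic sulfotransferases (SULT), chosen by name and without pseudogenes. They comprise 14 UGT, 23 GST and 11 SULT genes. The question was how each family stood in the colon of Gm31629-/- mice, which lack a long noncoding RNA gene on chromosome 1, compared with WT mice in colitis.

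RNA-Seq had been performed on colon tissue from 3 Gm31629-/- mice and 3 littermate WT mice, 8 weeks old, of strain C57BL/6 in the labels and C57BL/6J in the methods. All 6 received dextran sulfate sodium (DSS), a polymer that injures the colonic epithelium, as a 3% solution in the drinking water for 7 days, and were killed on day 8. No untreated mice were included, so every difference is one between genotypes under injury. The knockout was not restricted to a cell type, and the level of Gm31629 itself was not analysed here. Whole tissue was sequenced, so fewer cells of a type and less RNA per cell cannot be told apart.

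UGT enzymes sit in the membrane of the endoplasmic reticulum and transfer glucuronic acid from UDP-glucuronate. GST enzymes couple glutathione to electrophiles, and SULT enzymes in the cytosol transfer sulfate from the donor PAPS. In the intestine these families are best known from epithelial cells, where they act on compounds from the lumen before those reach the portal blood.

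The library depth fitted from the FPKM values (fragments divided by gene length and by library depth) was 18004600 to 18794500 fragments. Recovered fragments over all listed genes came to 19045390 to 19882224, above the fitted depth in every library, so both are estimates. Log2 values of 2 WT libraries correlated at 0.979 to 0.985, those of 2 Gm31629-/- libraries at 0.915 to 0.937, and those of a library from each group at 0.777 to 0.853. Gm31629-/- mouse 1 stood apart from the other 5 libraries in its sex-linked transcripts. It had 4 Y-linked genes at 2.03 to 15.4 FPKM and Xist at 0.006 FPKM, whereas the others had those 4 at 0 and Xist at 8.35 to 13.8 FPKM, and the methods name male mice. Other tissue layers differed as well. Summed over 15 colon epithelium markers, the Gm31629-/- libraries had 8236 to 9757 FPKM and the WT libraries 13270 to 14498, with 5 markers called lower and 10 not called. Of 12 smooth muscle markers 11 were called higher, with sums of 1610 to 2625 FPKM against 28.3 to 54.3, and of 12 markers of enteric neurons and glia 11 were called higher, with sums of 66.9 to 279 FPKM against 2.82 to 5.42. No marker of these 3 lists was at 0 in all libraries. The part of these tissue differences in the results given next was not tested.

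Conjugation enzymes were lower far more often than higher in Gm31629-/- colon. A gene was called when limma's adjusted p was under 0.05 and its change exceeded 1 on the log2(FPKM + 1) scale, and 33 of the 48 genes reached the mean of 0.5 FPKM needed for a test. Of these, 13 were called lower, or 39.4%, against 4.64% of all 14657 genes tested, and 2 were called higher, or 6.06%, against 18.4% of all genes. By the adjusted p alone 20 were lower and 2 higher, where the shares over all genes were 14.6% and 28.9%. In 20 genes every Gm31629-/- mouse was below every WT mouse, in 2 every one was above, and in 11 the groups overlapped, while over all genes 21.5% were separated with Gm31629-/- lower and 36.3% with Gm31629-/- higher. The median log2 difference of the 33 genes was −0.82, and that of all genes 0.15. Without Gm31629-/- mouse 1, 15 were called lower and 2 higher.

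The filter itself bears on some of these counts. Ugt1a1, Ugt1a6a, Ugt2b5, Ugt2b35 and Sult4a1 reached it through 1 group, and 4 of the 5 were called. Among the other 28 tested genes, 10 were called lower and 1 higher, with a median of −0.76. When the libraries were scaled to the epithelial markers in place of the deposited depth, the median of all genes moved to 0.69 and that of the 33 genes to −0.14, with 8 genes called lower and 3 higher. The 5 genes that were no longer called lower were Gsta3, Gsta4, Gstk1, Gstm6 and Gstp2, all of them GST genes, and the third gene called higher was Sult1b1. Under that scaling the UGT median stayed negative at −1.67, the GST median moved from −0.69 to 0.004 and the SULT median from −0.36 to 0.28, and 9 genes with a negative difference turned positive (Gstm2, Gstm4, Gstm7, Gsto1, Gstt2, Gstt3, Mgst2, Sult1d1 and Sult2b1).

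**Figure D1:**
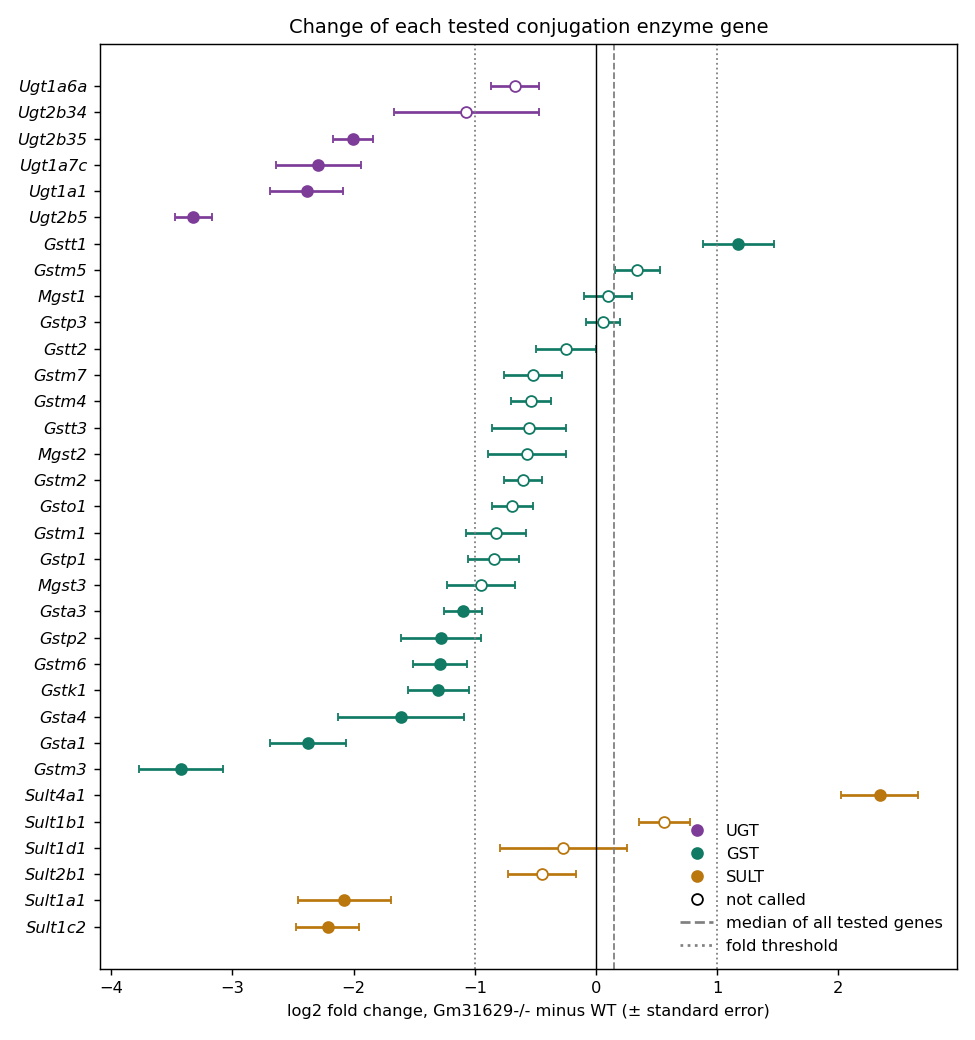
Log2 difference on the log2(FPKM + 1) scale, Gm31629-/- minus WT, with its standard error, for the 33 tested genes, where filled circles are called genes and the dashed line is the median of all genes tested. Of the 33 genes, 27 lie left of 0, and Gstt1 and Sult4a1 are the 2 called on the right.

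Of 6 tested UGT genes 4 were called lower and none higher, and 3 of these 4 (Ugt1a1, Ugt2b5 and Ugt2b35) had reached the filter through WT alone, so the count of calls is partly set by the filter. The median of the 6 was −2.15, and with no filter that of all 14 was −0.55, next to −0.60 for the 23 GST genes. Summed over the 14 genes, UGT transcripts amounted to 86.5, 16.1 and 52.5 FPKM in Gm31629-/- mice 1 to 3 and to 129, 155 and 121 FPKM in WT mice 1 to 3. At the deposited depth the groups did not overlap, although the Gm31629-/- mice differed among themselves far more than the WT mice did. No family sum was rescaled to the epithelial markers. That scaling divides values by 0.702 to 0.838 in Gm31629-/- libraries and by 1.21 to 1.33 in WT libraries.

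The Ugt1a genes lie on chromosome 1 as a row of alternative first exons that join shared last exons, so each gene of the row shares at least 1311 exonic bases with its neighbors. How reads from these shared bases were counted is not given in the sources used here, and the split between Ugt1a genes is uncertain. Ugt1a7c (ENSMUSG00000090124, chr1:88095062-88220002 in GRCm38), the most abundant of them in these samples, measured 8.28, 4.21 and 13.9 FPKM in Gm31629-/- and 38.8, 46.2 and 44.1 FPKM in WT. The highest Gm31629-/- mouse thus lay well below the lowest WT mouse, and the log2 difference was −2.29 ± 0.35 (SE, adjusted p = 0.0027).

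Ugt1a1 (ENSMUSG00000089960, chr1:88211959-88218997), the enzyme that glucuronidates bilirubin, measured 1.00, 0.0244 and 0.367 FPKM in Gm31629-/- and 4.42, 7.64 and 7.58 FPKM in WT. Its mean in Gm31629-/- was 7.09% of the WT mean, and the log2 difference was −2.39 ± 0.30 (adjusted p = 0.0013). Ugt1a6a, of a group of enzymes acting on planar phenols, was separated between the groups, with 0.0880 to 0.365 FPKM against 0.677 to 1.47 FPKM, and its log2 difference of −0.67 (adjusted p = 0.031) did not pass the fold threshold. The other 4 Ugt1a genes (Ugt1a2, Ugt1a5, Ugt1a6b and Ugt1a9) were under the filter.

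The Ugt2b genes lie in a cluster on chromosome 5 and encode enzymes for steroids, bile acids and many drugs. Ugt2b5 (ENSMUSG00000054630, chr5:87124960-87140318) measured 8.41, 10.3 and 8.68 FPKM in WT, and in Gm31629-/- 0.0292 FPKM in mouse 1 and 0 in the other two. In recovered fragments these were 938 over the WT mice and 1 over the Gm31629-/- mice, a ratio of 937 with an exact 95% interval of 168 to 37039 that covers counting error only. The difference on the log2(FPKM + 1) scale, which understates the change of low genes, was −3.32 ± 0.15 (adjusted p = 0.0001).

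Ugt2b35 (ENSMUSG00000035811, chr5:87000860-87013275) behaved similarly, with 0.324, 0 and 0.130 FPKM against 3.85, 3.41 and 3.55 FPKM and a log2 difference of −2.01 ± 0.17 (adjusted p = 0.0003). Ugt2b36 was under the filter, and its 72 fragments over the WT mice stood against 0 in Gm31629-/-, at least 24.0-fold lower when the zero is set to the 3 fragments over the group that it allows.

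Ugt2b34 (ENSMUSG00000029260, chr5:86889767-86906937) was the most abundant UGT transcript and did not share this pattern. It measured 76.3, 11.6 and 37.6 FPKM in Gm31629-/- and 72.5, 84.2 and 54.5 FPKM in WT, so that mouse 1 lay within the WT range and the other two below it. Its log2 difference of −1.07 ± 0.60 was not called (adjusted p = 0.182). Without Gm31629-/- mouse 1, the library with Y-linked transcripts, it was −1.67 and called (adjusted p = 0.030). Without Gm31629-/- mouse 2 it was −0.36 (adjusted p = 0.406), and under epithelial marker scaling −0.38 (adjusted p = 0.552), neither of them called. Ugt2b34 made up 88.1%, 71.9% and 71.6% of the UGT pool in Gm31629-/- mice 1 to 3 and 56.0%, 54.4% and 45.0% in WT mice 1 to 3. These shares did not overlap. Near-identical Ugt2b copies can share reads, which makes the values of single genes uncertain.

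**Figure D2:**
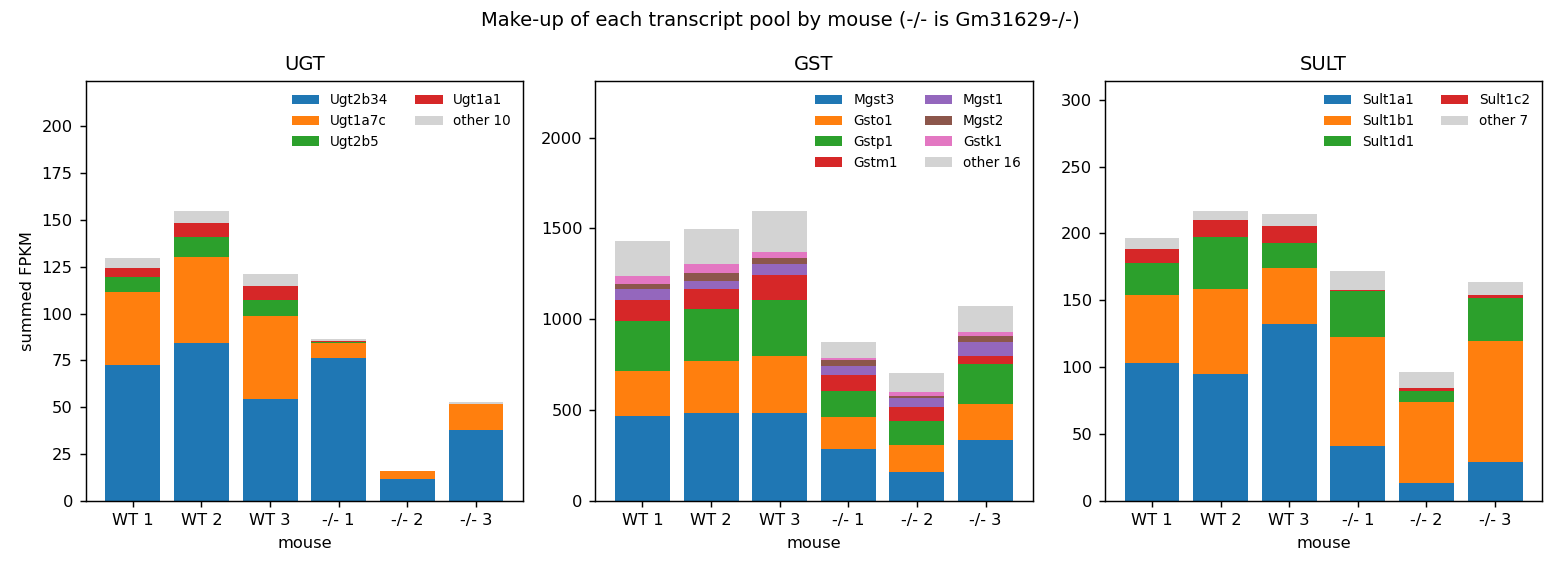
Summed FPKM of all UGT, GST and SULT genes in each mouse, with the most abundant genes of each family in color and the rest in gray. At the deposited depth the Gm31629-/- sums lie below the WT sums in each family. Ugt2b34 and Sult1b1 take up a larger share of their pools in Gm31629-/- mice.

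The GST family was the most abundant, with sums of 875, 705 and 1074 FPKM in Gm31629-/- and 1433, 1499 and 1594 FPKM in WT. Of 21 tested GST genes 7 were called lower and 1 higher. The differences ran from −3.42 to 1.17 and were uneven within subfamilies.

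The alpha class detoxifies peroxidized lipids and binds steroids, and its 3 tested genes were all called lower. Gsta1 (ENSMUSG00000074183, chr9:78230656-78242684) measured 1.02, 1.70 and 2.56 FPKM in Gm31629-/- and 8.20, 16.8 and 15.6 FPKM in WT, a log2 difference of −2.38 ± 0.32 (adjusted p = 0.0016). The groups were far apart, with the Gm31629-/- mean at 13.0% of the WT mean. Gsta4 (ENSMUSG00000032348, chr9:78182774-78209349), which conjugates the lipid aldehyde hydroxynonenal, was more variable, with 3.99, 20.9 and 15.9 FPKM against 28.9, 39.0 and 42.7 FPKM. Mouse 1 was the lowest of the 6, and the call at −1.61 ± 0.52 (adjusted p = 0.041) was kept in 1 of 6 fits that left out 1 library. Without mouse 1 the difference was −0.96 and under epithelial marker scaling −0.94, both short of the fold threshold.

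Gsta3 (ENSMUSG00000025934, chr1:21240589-21265661) was low but even within groups, at 0.726, 0.748 and 0.639 FPKM in Gm31629-/- and 2.63, 2.28 and 3.06 FPKM in WT, a log2 difference of −1.10 ± 0.16 (adjusted p = 0.0020) that came to −0.69, short of the fold threshold, under epithelial marker scaling. Its promoter is shown because it holds the core of an antioxidant response element, the sequence bound by NRF2 (Nfe2l2), a factor known for inducing GST genes. The 250 bases upstream of the RefSeq start site (GRCm38.p6, chr1:21240335-21240584, plus strand) are printed with the core in capitals, its first base 121 bases before the start.
Gsta3: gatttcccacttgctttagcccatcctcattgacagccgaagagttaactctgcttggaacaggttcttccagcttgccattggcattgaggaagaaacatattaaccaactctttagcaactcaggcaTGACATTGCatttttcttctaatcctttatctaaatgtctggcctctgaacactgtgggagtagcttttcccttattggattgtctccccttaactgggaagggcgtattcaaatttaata
The core searched was TGAC, any 3 bases and GC, on either strand, in windows of 250 bases before and 50 after each start. It was found for 4 of the 44 conjugation genes with a RefSeq promoter (Gsta3, Gstm5, Gstm7 and Mgst1), or 9.09%, and for 14.0% of all 27025 genes with one. Of these 4 only Gsta3 was called, and Gstm5, Gstm7 and Mgst1 had log2 differences of 0.34, −0.52 and 0.10 that were not.

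The mu class, encoded by a cluster on chromosome 3, spanned the widest range within a subfamily. Gstm3 (ENSMUSG00000004038, chr3:107963696-107969283) was among the conjugation genes with the lowest log2 differences, next to Ugt2b5. It measured 1.70, 0.827 and 3.82 FPKM in Gm31629-/- and 27.2, 26.4 and 37.0 FPKM in WT, a Gm31629-/- mean at 7.00% of the WT mean and a log2 difference of −3.42 ± 0.35 (adjusted p = 0.0006). Its neighbor Gstm6 (ENSMUSG00000068762, chr3:107938847-107943749) was called lower at −1.29 ± 0.22 (adjusted p = 0.0042), with 0.765, 0.872 and 1.78 FPKM against 4.46, 3.41 and 4.55 FPKM. Under epithelial marker scaling Gstm6 was at −0.82, short of the fold threshold.

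The most abundant mu gene, Gstm1 (ENSMUSG00000058135, chr3:108012255-108017973), measured 89.6, 72.0 and 46.6 FPKM in Gm31629-/- and 116, 108 and 136 FPKM in WT. The groups were separated. Gstm1 came to −0.12 (adjusted p = 0.724) under epithelial marker scaling. At the deposited depth its log2 difference of −0.82 ± 0.25 (adjusted p = 0.032) stayed under the fold threshold. Gstm2 and Gstm4 likewise passed the adjusted p alone, at −0.60 and −0.54, but turned to 0.08 and 0.08 under epithelial marker scaling, whereas Gstm7 at −0.52 and Gstm5 at 0.34 did not. Gstm5 showed 9.23 to 13.7 FPKM in Gm31629-/- and 7.34 to 9.49 FPKM in WT, so the groups overlapped. Under epithelial marker scaling Gstm5 was higher at 0.98 (adjusted p = 0.0060), short of the fold threshold. The ratio of Gstm3 to Gstm5 within a library, a pair chosen after the values were seen, was 0.184, 0.0759 and 0.279 in Gm31629-/- and 2.99, 3.60 and 3.90 in WT. Mu genes are close in sequence, and reads may have been split among them.

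The pi class, on chromosome 19, acts on many electrophiles and is a main GST of epithelia. Gstp1 (ENSMUSG00000060803, chr19:4035407-4037985), its abundant member, measured 141, 134 and 219 FPKM in Gm31629-/- and 274, 285 and 312 FPKM in WT. All Gm31629-/- values were lower, at −0.85 ± 0.21 (adjusted p = 0.017), short of the fold threshold. Under epithelial marker scaling Gstp1 came to −0.14 (adjusted p = 0.582). Gstp2 (ENSMUSG00000038155, chr19:4040285-4046023) was called lower, with 10.02, 8.09 and 21.3 FPKM against 36.1, 28.4 and 28.5 FPKM and −1.28 ± 0.33 (adjusted p = 0.018), and the call was kept in 4 of 6 fits that left out 1 library, and lost under epithelial marker scaling (−0.61, adjusted p = 0.110). The third gene of the cluster, Gstp3, had nearly the same level in both groups, with means of 11.8 and 11.3 FPKM and a log2 difference of 0.06 (adjusted p = 0.749). Under epithelial marker scaling Gstp3 was higher at 0.71 (adjusted p = 0.0097), short of the fold threshold. Gstp1 and Gstp2 are near-identical, so their separate values are uncertain.

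The theta class on chromosome 10 held the only gene called higher among the GST genes chosen by name. Gstt1 (ENSMUSG00000001663, chr10:75783813-75798584), an enzyme known for small halogenated compounds, measured 11.3, 15.9 and 26.2 FPKM in Gm31629-/- and 8.21, 5.74 and 6.96 FPKM in WT, a log2 difference of 1.17 ± 0.29 (adjusted p = 0.017). The groups did not overlap, and the call was kept in 3 of 6 fits without 1 library, with adjusted p up to 0.0593. Its neighbors Gstt2 and Gstt3 had log2 differences of −0.25 (adjusted p = 0.442) and −0.55 (adjusted p = 0.180). Within a library, Gstt1 was 1.99, 4.73 and 2.73 times Gstt3 in Gm31629-/- and 0.924, 0.677 and 0.734 times in WT, a pair also chosen after the values were seen.

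**Figure D3:**
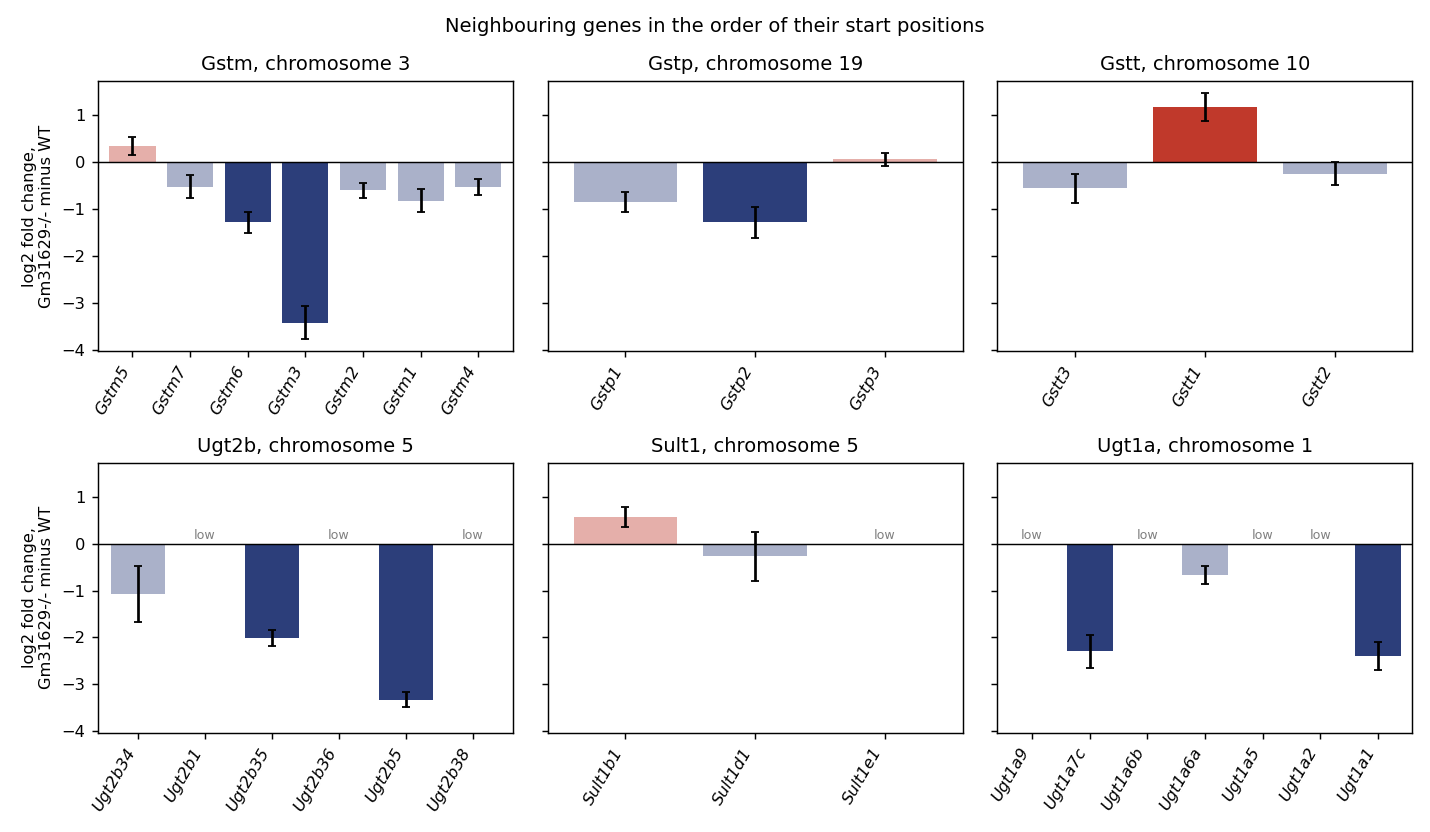
Log2 difference on the log2(FPKM + 1) scale, Gm31629-/- minus WT, with standard error, for neighboring genes of 6 subfamilies in the order of their start positions, where full color marks called genes, pale color genes not called and "low" genes under the filter. Within the Gstm cluster the bars run from 0.34 at Gstm5 to −3.42 at Gstm3, and in the Gstt cluster Gstt1 is the 1 bar above 0.

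Gstk1 (ENSMUSG00000029864, chr6:42245935-42250447), the kappa enzyme of mitochondria and peroxisomes, measured 10.8, 17.7 and 20.5 FPKM against 40.6, 48.3 and 33.6 FPKM in WT. The groups were clearly separated, and the log2 difference was −1.30 ± 0.25 (adjusted p = 0.0066), or −0.62 and not called (adjusted p = 0.074) under epithelial marker scaling. Gsto1 (ENSMUSG00000025068, chr19:47854970-47864790), an omega enzyme that reduces dehydroascorbate, measured 178, 150 and 196 FPKM against 247, 286 and 314 FPKM. It was separated too, at −0.69 ± 0.17 (adjusted p = 0.016), under the fold threshold, and moved to 0.015 when libraries were scaled to epithelial markers. The second omega gene, Gsto2, was under the filter, with 0.246 to 0.489 FPKM in Gm31629-/- and 0 to 0.139 FPKM in WT, separated in the other direction.

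The MGST enzymes are membrane proteins of a different fold that conjugate or reduce lipid products. Mgst3 (ENSMUSG00000026688, chr1:167371966-167393841) had the highest level of all conjugation genes, at 283, 158 and 337 FPKM in Gm31629-/- and 469, 486 and 481 FPKM in WT. The WT mice were nearly equal and each was above every Gm31629-/- mouse, with a log2 difference of −0.95 ± 0.28 (adjusted p = 0.030) that did not reach the fold threshold. Under epithelial marker scaling Mgst3 came to −0.24 (adjusted p = 0.402). Mgst2 at −0.57 (adjusted p = 0.193) and Mgst1 at 0.10 (adjusted p = 0.705) overlapped between the groups. Under epithelial marker scaling Mgst1 was higher at 0.80 (adjusted p = 0.012), short of the fold threshold. Mgst1 made up 5.93%, 7.29% and 7.10% of the GST pool in Gm31629-/- and 4.07%, 3.15% and 3.75% in WT, although no difference in its own level was detected at the deposited depth.

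**Figure D4:**
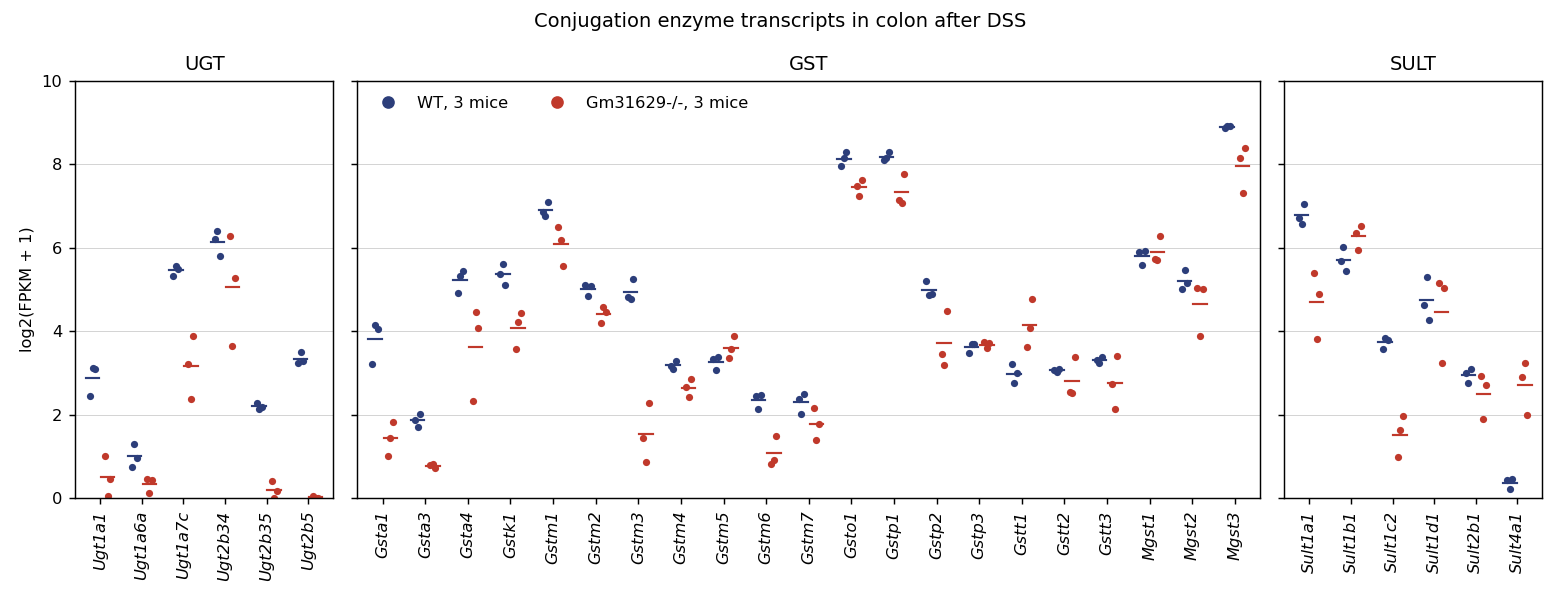
Log2(FPKM + 1) of the 33 tested genes in each mouse, by family, with 3 points and the mean per group, blue for WT and red for Gm31629-/-. The red points of Ugt2b5, Gstm3 and Sult1c2 lie far below the blue ones, those of Sult4a1 lie above, and those of Gstp3 and Mgst1 lie among or next to the blue ones.

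SULT genes moved in both directions. Of 6 tested, 2 were called lower and 1 higher, and the sums were 172, 96.6 and 163 FPKM in Gm31629-/- against 197, 217 and 214 FPKM in WT. Sult1a1 (ENSMUSG00000030711, chr7:126672865-126676432), which sulfates phenols, measured 41.3, 13.1 and 28.7 FPKM in Gm31629-/- and 103, 94.7 and 132 FPKM in WT. The groups did not overlap, and the log2 difference was −2.08 ± 0.38 (adjusted p = 0.0055). Sult1c2 (ENSMUSG00000023122, chr17:53829637-53846339) measured 0.971, 2.08 and 2.89 FPKM against 10.9, 13.2 and 12.9 FPKM, a difference of −2.21 ± 0.26 (adjusted p = 0.0010) with the Gm31629-/- mean at 16.04% of the WT mean.

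Sult1b1 is a sulfotransferase of the gut that acts on thyroid hormones and small phenols. It measured 80.9, 60.9 and 91.0 FPKM in Gm31629-/- and 50.3, 63.8 and 42.4 FPKM in WT, with overlapping groups and a log2 difference of 0.56 ± 0.21 (adjusted p = 0.068). Under epithelial marker scaling it was called higher at 1.26 (adjusted p = 0.0011). Sult1a1 made up 24.0%, 13.5% and 17.6% of the SULT pool in Gm31629-/- and 52.6%, 43.7% and 61.6% in WT, and Sult1b1 47.0%, 63.1% and 55.7% against 25.6%, 29.5% and 19.8%. The order of the pair thus differed in every mouse of one group from every mouse of the other, with Sult1a1 at 0.511, 0.214 and 0.316 times Sult1b1 in Gm31629-/- and 2.06, 1.48 and 3.12 times in WT. This pair, too, was chosen after the values were seen.

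Sult1d1 and Sult2b1 (ENSMUSG00000003271, chr7:45729983-45784669), the latter a cholesterol sulfotransferase, overlapped between groups at −0.27 (adjusted p = 0.703) and −0.45 (adjusted p = 0.230). They moved to 0.41 and 0.15 under epithelial marker scaling.

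Sult4a1 (ENSMUSG00000018865, chr15:84076097-84105754), known mainly from the nervous system, was called higher. It measured 6.45, 8.50 and 2.97 FPKM in Gm31629-/- and 0.340, 0.163 and 0.380 FPKM in WT, a log2 difference of 2.34 ± 0.32 (adjusted p = 0.0017). Every Gm31629-/- mouse was far above every WT mouse, and the call was kept in 6 of 6 fits without 1 library. Sult4a1 had, however, reached the filter through Gm31629-/- alone, with a WT mean of 0.294 FPKM. Those 6 fits used the same filter, so the call is partly set by it. The markers of enteric neurons and glia rose in the same libraries, as given above, and their part in the Sult4a1 result was not tested.

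The 15 genes under the filter had means of 0.0123 to 0.463 FPKM over the 6 libraries and at most 0.930 FPKM in any one. Ugt8a, which makes galactosylceramide in myelin, measured 0.0480 to 0.0958 FPKM in Gm31629-/- and 0.334 to 0.514 FPKM in WT. In fragments, Sult5a1 had 97 over the Gm31629-/- mice and 1 over the WT mice, and the estrogen sulfotransferase Sult1e1 had 14, all in Gm31629-/- mouse 1, and none in WT. The remaining 12 genes were Gsta2, Gsto2, Sult1c1, Sult6b1, Sult6b2, Ugt1a2, Ugt1a5, Ugt1a6b, Ugt1a9, Ugt2b1, Ugt2b36 and Ugt2b38, and over all 48 listed genes 24 were separated with Gm31629-/- lower, 6 with Gm31629-/- higher and 18 overlapped, where the shares over all 27546 listed genes were 12.6% lower and 31% higher.

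The supply of each cosubstrate was followed next in lists of other genes. Over all genes 4.64% were called lower and 18.4% higher, and the median was 0.15. For sulfation, 3 of 9 tested genes were called lower and 1 higher. The median of that list was 0.04, with 4 genes negative and 5 positive. Papss2, which makes the sulfate donor PAPS, measured 64.2, 24.5 and 41.6 FPKM in Gm31629-/- and 169, 215 and 227 FPKM in WT, a log2 difference of −2.29 (adjusted p = 0.0021). Its paralog Papss1 differed by −1.42 (adjusted p = 0.0012), and Bpnt1, which removes the spent donor, by −1.57 (adjusted p = 0.0005). All 3 were thus lower together with Sult1a1 and Sult1c2, while Impad1, a phosphatase for the spent donor in the Golgi, was called higher at 1.27 (adjusted p = 0.011).

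For glucuronidation, 1 of 5 tested genes was called lower. Slc35d1, a carrier of UDP-sugars into the endoplasmic reticulum, measured 9.65, 4.21 and 4.36 FPKM in Gm31629-/- and 18.9, 21.7 and 23.1 FPKM in WT, a log2 difference of −1.73 (adjusted p = 0.0036). Ugdh, the enzyme that makes UDP-glucuronate, measured 35.8, 7.53 and 23.8 FPKM against 45.9, 59.5 and 50.6 FPKM and was not called at −1.41 (adjusted p = 0.052). Ugp2, which makes its precursor, had a difference of 0.44 (adjusted p = 0.112).

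For glutathione, 2 of 9 tested genes were called lower. Gss, glutathione synthetase, measured 10.3, 8.20 and 10.3 FPKM in Gm31629-/- and 22.9, 28.8 and 32.4 FPKM in WT, a log2 difference of −1.45 (adjusted p = 0.0012). Ggt1, which cleaves glutathione at the cell surface, differed by −2.37 (adjusted p = 0.0039). Both were separated between groups. Gclc, the catalytic subunit of the rate-limiting step, was not called at −0.29 (adjusted p = 0.364), and the cystine carrier Slc7a11 passed the adjusted p alone at 0.82 (adjusted p = 0.019). Of the supply genes called lower, Papss1, Bpnt1 and Gss came to −0.74, −0.88 and −0.78 under epithelial marker scaling, short of the fold threshold, and Gclc turned to 0.40.

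**Figure D5:**
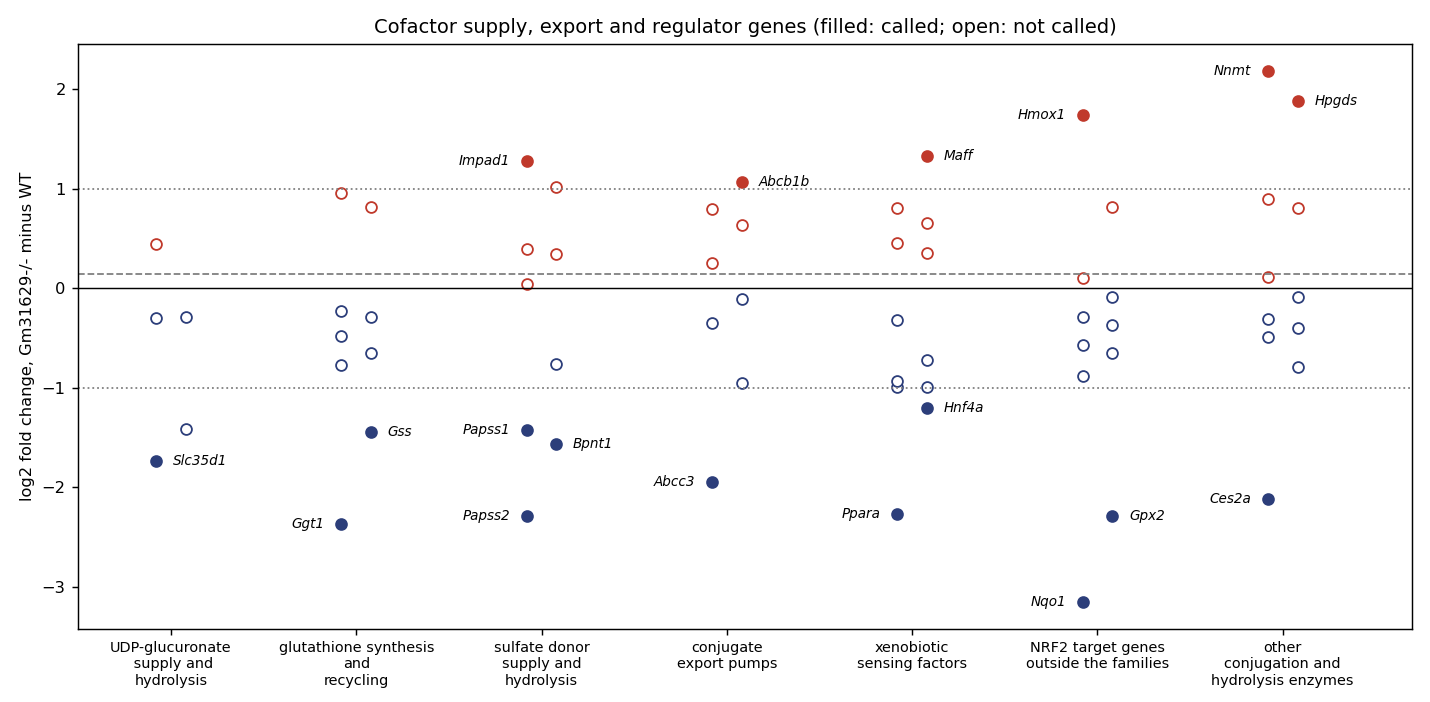
Log2 difference on the log2(FPKM + 1) scale, Gm31629-/- minus WT, of the tested genes of 7 lists for cosubstrate supply, export, regulators and related enzymes, with called genes filled and named, the fold thresholds dotted and the median of all genes dashed. Gclc, Gclm and Slc7a11 stand in 2 of the lists, and Nqo1 at −3.15 is the lowest point.

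Of 8 tested genes in a list of export pumps 1 was called in each direction, where 4.64% of all genes were called lower and 18.4% higher. Abcc3, which moves glucuronides across the basolateral membrane, measured 19.2, 18.2 and 38.3 FPKM in Gm31629-/- and 76.9, 103 and 107 FPKM in WT, a log2 difference of −1.95 (adjusted p = 0.0026). Abcb1b was called higher at 1.07 (adjusted p = 0.0097) from levels of 0.0400 to 0.132 FPKM in WT, and Abcc6 at −0.95 (adjusted p = 0.012) did not pass the fold threshold. The median of the list was 0.07.

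Among 12 tested transcription factors and regulators that sense foreign compounds, 2 were called lower and 1 higher, next to 4.64% and 18.4% of all genes. The median of that list was −0.52, against 0.15 over all genes. Ppara, a receptor for fatty acids, measured 1.26, 0.367 and 0.596 FPKM in Gm31629-/- and 4.90, 9.57 and 7.82 FPKM in WT, a log2 difference of −2.27 (adjusted p = 0.0013). Hnf4a, a regulator of epithelial and hepatic genes, differed by −1.20 (adjusted p = 0.0025), or by −0.50 under epithelial marker scaling. Maff, a small partner protein of NRF2, was the one called higher. Keap1, which holds NRF2 in the cytosol, was separated at −0.93 (adjusted p = 0.0024) but under the fold threshold, as was Nfe2l2 at −0.72 (adjusted p = 0.017). Under epithelial marker scaling the medians of the pathway lists ran from 0.17, for these sensing factors, to 0.68, and that of all genes was 0.69.

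Of 11 tested NRF2 target genes outside the 3 families, 2 were called lower and 1 higher, next to 4.64% and 18.4% of all genes. Their median was −0.37, against 0.15 over all genes. Nqo1, a quinone reductase, measured 3.85, 3.70 and 2.73 FPKM in Gm31629-/- and 29.6, 41.3 and 45.3 FPKM in WT, a log2 difference of −3.15 (adjusted p = 0.0002). Gpx2, the glutathione peroxidase of the gut epithelium, differed by −2.29 (adjusted p = 0.0090). Hmox1, heme oxygenase, was higher, with 25.3, 33.8 and 21.5 FPKM against 5.50, 7.26 and 9.27 FPKM and a difference of 1.74 (adjusted p = 0.0016). Hmox1 is also strongly expressed in macrophages, of whose 7 markers 6 were called higher, with sums of 333 to 726 FPKM against 68.2 to 78.8 FPKM, and the part of that difference was not tested.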

How the data were processed

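RNA-Seq was performed on colon tissue of 3 Gm31629-/- and 3 WT mice, and samples were grouped by the genotype in their labels. The unit of the table that the authors deposited was FPKM, with 27546 genes in rows and the 6 mice in columns. The submitters' processing notes name HISAT2 2.1.0, HTSeq 0.6.0 and GRCm38, and the annotation release is not given in the sources used here. The methods speak of pooled RNA, whereas each column names 1 mouse, and libraries were treated as separate mice. Nothing says that they were processed independently, so p-values measure the spread between these samples.

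Symbols, positions and exon lengths came from GENCODE M21 (27488 identifiers matched), which annotates 67 genes of the 3 families without pseudogenes, of which 19 were not analysed here. One pseudogene row was left out. Fragments were recovered from FPKM, exon length and depth, and 96.3% to 97.3% of values up to 20 fragments lay within 0.1 of a whole number. Genes with a mean of at least 0.5 FPKM were tested with limma 3.58.1 (R 4.3.3, eBayes with a trend) on log2(FPKM + 1), which understates the change of low genes, with Benjamini-Hochberg adjustment over 14657 genes. The script was tested on simulated data. Fold differences of sums, shares and ratios carry no test, since 3 mice against 3 cannot go below p = 0.1 in an exact permutation test.

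Named genes were the called genes with separated groups (up to 8 per family and direction), the most abundant tested gene of each subfamily, and up to 3 genes of each of 7 pathway lists by adjusted p. Genes outside this rule (among them Sult1b1, Gstm5, Gstp3, Ugt2b36 and Ugt8a) were named to account for a subfamily or after their values were seen. The genes, lists and tests were chosen with earlier results of these data known. Alternatives were another pseudocount (0.1), no filter, a filter of 5 FPKM, 3 other scalings, eBayes without a trend, limma treat, the replicate block, leaving out each library, and voom on fragments. One gene of the list of sensing factors is not reported here. Marker lists for 11 cell types were summed. Figures were drawn with matplotlib 3.10.9.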

Additional observations from a re-analysis of the deposited data

How the results depend on the processing

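The counts of 2 genes called higher and 13 called lower and the median of −0.82 held within 1.5 times, or within the spread between replicates, under most alternatives. Exceptions were a filter of 5 FPKM, with 1 higher and 8 lower of 25 tested genes, limma treat, with 1 higher and 6 lower, scaling to epithelial markers, with 3 higher, 8 lower and a median of −0.14, and no filter, with a median of −0.53 over 48 genes. The fits without Gm31629-/- mouse 3, WT mouse 2 or WT mouse 3 were exceptions too, each with 1 gene called higher. Under epithelial marker scaling 9 single genes turned positive, Gsto1 (0.015), Sult2b1 (0.15), Gstm2 (0.08), Gstm4 (0.08), Gstm7 (0.004), Gstt2 (0.37), Gstt3 (0.06), Mgst2 (0.11) and Sult1d1 (0.41), and none of these values passed the adjusted p. Among genes positive already at the deposited depth, Gstm5 (0.98), Gstp3 (0.71) and Mgst1 (0.80) newly passed the adjusted p there, short of the fold threshold. Sult1b1 (1.26) was newly called. Under median ratio scaling Gstp3 (−0.10) and Mgst1 (−0.07) turned negative. Of the values of the genes named by rule under alternatives, 2 changed sign (Gsto1 and Sult2b1), 297 kept direction and side of the threshold, 24 lost the call or the threshold and 7 gained it. The 297 include Gstm1, Gstp1 and Mgst3 under epithelial marker scaling, where they no longer passed the adjusted p. Without 1 library the counts were 1 to 2 higher and 11 to 15 lower, and the median −0.88 to −0.63. The call of Gstt1 was lost without Gm31629-/- mouse 3, WT mouse 2 or WT mouse 3, that of Gstp2 without WT mouse 1 or WT mouse 3, and the SULT median turned to 0.11 without Gm31629-/- mouse 2.

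Of all calls over 14657 genes 79.9% were higher, against 66.0% with a filter of 5 FPKM and 95.7% with epithelial marker scaling. Deviations of same-numbered mice correlated at 0.0358, −0.108 and 0.0141, within the range of −0.133 to 0.116 for mice of different numbers. The numbers thus gave no sign of a pairing, which these correlations cannot exclude. With the replicate block 13 genes were called lower and 2 higher with a median of −0.82. At this depth 0 fragments in a library allow up to 3.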

Other observations

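Of 11 tested genes of conjugating and hydrolyzing enzymes outside the genes chosen by name, 2 were called higher and 1 lower, next to 18.4% and 4.64% of all genes. The median log2 difference was −0.09, with 6 genes negative and 5 positive, against 0.15 over all genes. Nnmt, which methylates nicotinamide, measured 3.24, 6.98 and 5.25 FPKM in Gm31629-/- and 0.274, 0.388 and 0.270 FPKM in WT, a difference of 2.19 (limma, adjusted p = 0.0009). Hpgds, a glutathione-using enzyme that makes prostaglandin D, measured 8.63, 2.505 and 2.27 FPKM against 0.261, 0.285 and 0.356 FPKM, a difference of 1.88 (adjusted p = 0.0093). The carboxylesterase Ces2a was called lower at −2.12 (adjusted p = 0.047), although its Gm31629-/- values of 53.8, 14.8 and 150 FPKM were uneven. Ephx1, microsomal epoxide hydrolase, had a difference of 0.90 (adjusted p = 0.010) under the fold threshold.

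Markers of fibroblasts were called higher in 8 of 8 genes, of endothelium in 6 of 6, of neutrophils in 6 of 6 and of adipocytes in 4 of 5 tested. Over all genes 18.4% were called higher and 4.64% lower. Of 10 markers of absorptive colonocytes 4 were called lower and 1 higher, with sums of 2763 to 8547 FPKM in Gm31629-/- and 9190 to 11730 FPKM in WT. Of 9 goblet cell markers 4 were called higher and 1 lower, with sums of 12536 to 17954 FPKM against 4828 to 6196 FPKM. Markers of hepatocytes, another tissue rich in conjugation enzymes, summed to 5.401 to 16.9 FPKM against 2.74 to 4.29 FPKM, with 2 of 6 genes tested and none called. The part of these cell types in the enzyme results was not tested.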
